A study of Mus musculus with 22 samples.

Results

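The genes described here are 8 mesenchymal genes: the transcription factor genes Snai1, Snai2, Twist1, Twist2, Zeb1 and Zeb2, and the cell adhesion and cytoskeleton genes Cdh2 (N-cadherin) and Vim (vimentin). They were chosen by name, and they comprise every probe set that the array's annotation assigned to 1 of these genes and to no other. This gave 19 probe sets of 34945 with a single gene, and 8 genes of 18193. Snai1, Twist1 and Twist2 had 1 probe set each, Snai2 and Cdh2 had 2, Vim had 3, Zeb1 had 4 and Zeb2 had 5. All 19 are reported, and no filter on low values was applied.

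Expression was measured on Affymetrix mouse arrays in mouse embryonic fibroblasts (MEFs), primary cells cultured from embryos, 7 days after infection with an adenovirus. The 5 control arrays came from wild type MEFs given a virus that carries GFP, and the other 17 from MEFs given a virus that carries Cre recombinase. In the 5 oncogene arrays Cre activated a conditional mutant oncogene allele, in the 5 Wt1-null arrays it deleted Wt1 from Wt1f/f cells, and in the 7 double arrays it did both. Every comparison with the control is therefore also a comparison of Cre with GFP virus, which cannot be told apart from the genotype. The labels give no age of the embryos and name no embryo or culture for a replicate. P-values here reflect only how these arrays scatter, which may be technical in part. Values are RMA expression values on the log2 scale, so a difference of 1 is a change of expression by a factor of 2 on a scale that RMA compresses at the low end.

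Snai, Twist and Zeb proteins are the core factors of the epithelial-mesenchymal transition. Snai and Zeb proteins are zinc finger proteins, and Twist proteins are basic helix-loop-helix proteins. All of them bind short E-box sequences, and Snai and Zeb proteins repress epithelial genes there, above all Cdh1, the gene of E-cadherin. Cells that pass through the transition lose E-cadherin, gain N-cadherin and rely on vimentin filaments. Fibroblasts are mesenchymal from the start, so they express these factors and filaments without any transition.

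The E-box CAGGTG and its reverse complement CACCTG, the form that Snai and Zeb zinc fingers are best known to bind, were searched in the RefSeq promoter windows of mouse assembly GRCm38.p6, each running from 250 bases before to 50 bases after a gene's start. Windows were matched for 5 of the 8 genes (8 windows, 4 of them for Zeb2). The Snai1 window, chr2:167537945-167538244 on the plus strand, held 1 match, and the windows of Twist1, Twist2, Zeb2 and Vim held 0. Of all 32851 windows of this length, 20.2% held at least 1 match. The stretch around the Snai1 match, chr2:167538042-167538101, is shown because Snai1 is known as a repressor of its own promoter, and the capitals mark the E-box, 126 to 121 bases before the start:
Snai1: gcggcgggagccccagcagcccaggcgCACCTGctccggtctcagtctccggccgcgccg
The match is a description of these letters, not of a bound site.

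None of the 19 probe sets passed the test in any comparison (limma, 4 group means over 22 arrays, Benjamini-Hochberg adjusted p below 0.05 over 45037 probe sets). The background differed widely between comparisons. Of all probe sets, 1.07% were called in oncogene versus control, 0.0422% in Wt1-null versus control and 4.01% in double versus control. The shares were 0% in double versus oncogene, 0.00666% in double versus Wt1-null and 0.00888% in oncogene versus Wt1-null. The interaction, which subtracts the oncogene-minus-control difference from the double-minus-Wt1-null difference, called 0.00888%, and the F test over the 4 groups called 1.84%. Some of these shares moved with 1 array. Without Wt1-null 2 they were 3.77% in double versus Wt1-null, 0.744% in oncogene versus Wt1-null and 4.4% in the F test, and still 0 of the 19 were called. A count of 0 among 19 is near the background at each of these shares. Before adjustment, limma gave p below 0.05 for 1 of the 19 in oncogene versus control, 0 in Wt1-null versus control, 1 in double versus control, 1 in oncogene versus Wt1-null and 0 in double versus oncogene, double versus Wt1-null and the interaction. The gene was Cdh2 in the comparisons with control and Twist1 in oncogene versus Wt1-null. The same shares over all probe sets were 13.5%, 11%, 17.8%, 7.27%, 3.52%, 13% and 7.52%.

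The median log2 difference of the 19 probe sets was 0.01 in oncogene versus control, -0.02 in Wt1-null versus control and -0.00 in double versus control. Over all probe sets these medians were -0.02, -0.03 and -0.03. Within the Cre-treated arrays, the 19 had a median of 0.00 in double versus oncogene and -0.02 in double versus Wt1-null. In no pairwise comparison did the arrays of the 2 groups separate without overlap for any of the 19. Of all probe sets, 4.79% separated in oncogene versus control, 4.36% in Wt1-null versus control, 3.38% in double versus control, 0.138% in double versus oncogene, 0.77% in double versus Wt1-null and 1.23% in oncogene versus Wt1-null. A missed threshold does not show equal expression. The 95% confidence interval lay within 1 log2 unit on either side of 0 for 13 of 19 probe sets in oncogene versus control, 14 in Wt1-null versus control, 14 in double versus control, 15 in double versus oncogene and 15 in double versus Wt1-null.

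**Figure D1:**
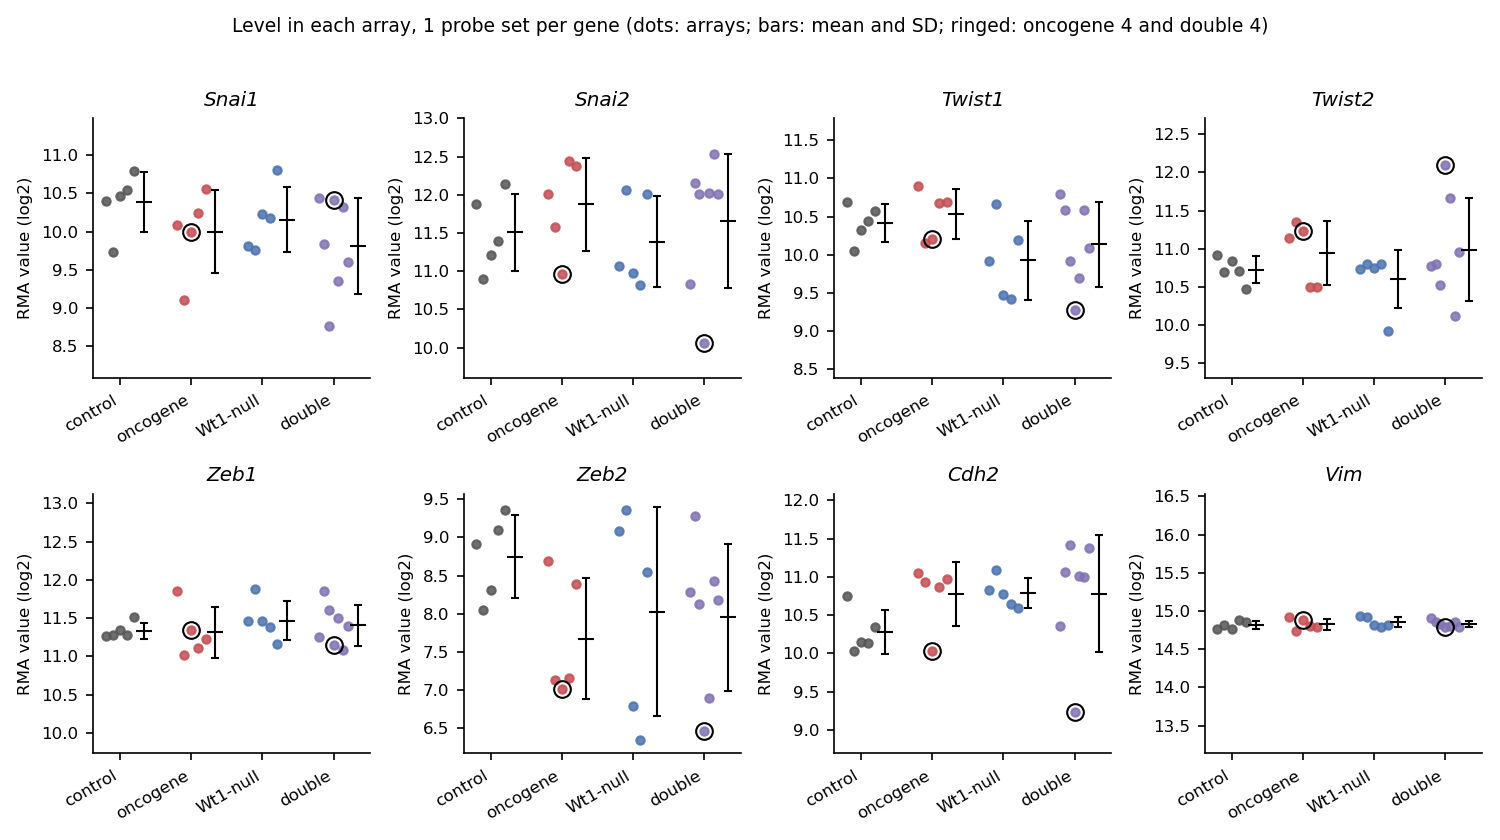
RMA value (log2, vertical axis) of 1 probe set per gene, the one with the highest mean, in each of the 22 arrays, by group; dots are arrays, bars are the group mean and SD, rings mark oncogene 4 and double 4, and the axes differ between panels. The groups overlap for all 8 genes, Vim spans 14.74 to 14.93, and Zeb2 spans 6.35 to 9.36.

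Some arrays stood apart from the rest. Double 4 and oncogene 4 had the lowest mean correlation with the other arrays, 0.940 and 0.963, and were each other's closest array. Wt1-null 2 and double 2 correlated at 0.998 across labels, as did Wt1-null 3 and Wt1-null 4 within a label. Over the 19 probe sets the median absolute difference was 0.07 in both of these pairs, against a median of 0.28 over the 229 other pairs. Whether those arrays share a source was not tested. The probe set of Wt1 read 4.38 ± 0.10 (SD, n = 5) in control and 4.47 ± 0.15 (SD, n = 5) in Wt1-null arrays, at the background level of the arrays, so the deletion could not be checked. All 14 fibroblast markers were above background (3.65 to 5.06, the range of 3 Y-linked genes in the 9 Xist-high arrays, which come from XX cells). Their mean per array was 11.72 to 12.70 in control and 11.95 to 12.96 in Cre-treated arrays. Markers of other cell types were measured too. Above background were 8 of 10 epithelial, 4 of 8 mesothelial, 6 of 10 endothelial, 8 of 11 haematopoietic, 8 of 9 neural and glial, 8 of 11 skeletal muscle, 7 of 8 chondrocyte and 4 of 6 adipocyte markers, so these lists do not show that such cells were absent. The haematopoietic marker Cd68 was called, at 0.80 in double versus control (limma adjusted p = 0.0393). The markers at background included Cdh1 and Esrp1 (epithelial), Pecam1 (endothelial) and Ptprc (haematopoietic). The epithelial markers Epcam, Krt8, Krt18 and Krt19 were above it. The part of other cell types in the results was not tested. The groups also differed in sex. Xist was high in 5 double arrays, in 2 each from control and Wt1-null, and in 0 from oncogene. Group differences can therefore include a difference of sex, most of all in double versus oncogene. With Xist as a covariate, 1074 probe sets were called in double versus control, against 1805 without it. In oncogene versus control the calls were 541 against 483. With this covariate 0 of the 19 were called in each comparison.

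Snai1 encodes Snail, the family member most directly tied to repression of Cdh1. It had the highest mean in control arrays, 10.39 ± 0.39 (SD, n = 5), followed by Wt1-null at 10.16 ± 0.42 (SD, n = 5), oncogene at 9.9998 ± 0.54 (SD, n = 5) and double at 9.82 ± 0.63 (SD, n = 7). The 5 control arrays read 10.40, 9.74, 10.47, 10.55 and 10.79. The oncogene arrays read 10.09, 9.11, 9.99, 10.25 and 10.56. One of them, oncogene 3, lay below the control range, and the other 4 fell within it. The Wt1-null arrays read 9.81, 9.76, 10.23, 10.18 and 10.81. The double arrays ran from 8.76 (double 3) over a median of 9.84 to 10.44. Double 3, double 5 and double 7 read 8.76, 9.35 and 9.60, below every control array, while the other 4 were within the control range. Neighbours in the order of group means differed by less than the SD within groups. The difference of double from control was -0.57 (SE 0.29), with a 95% confidence interval of -1.17 to 0.03 and an adjusted p of 0.313 by limma. In oncogene versus control it was -0.39 (SE 0.31, limma adjusted p = 0.639). The double arrays differed from oncogene by -0.18 (SE 0.29) and from Wt1-null by -0.34 (SE 0.29), neither called.

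Snai2 encodes Slug, a repressor that is prominent in neural crest and in fibroblasts. The probe set 1447643_x_at had group means of 11.51 ± 0.50 (SD, n = 5) in control arrays, 11.87 ± 0.61 (SD, n = 5) in oncogene arrays, 11.39 ± 0.60 (SD, n = 5) in Wt1-null arrays and 11.66 ± 0.88 (SD, n = 7) in double arrays. The order was oncogene, double, control, Wt1-null, and no neighbours differed beyond their spread. The arrays split within groups more than between them. Double 4 at 10.07 and double 1 at 10.83 were low while the other 5 double arrays lay between 12.01 and 12.53. Likewise Wt1-null 2 and Wt1-null 5 read 12.06 and 12.01, and the other 3 Wt1-null arrays 10.82 to 11.07. The second probe set, 1418673_at, ran from 9.10 (double 4) to 11.05 (double 6), with group means of 10.24 to 10.48. Both probe sets moved together over the 22 arrays (Pearson r = 0.95, a description of arrays that share batches and groups). The differences of the 2 probe sets were 0.37 and 0.15 in oncogene versus control, 0.15 and -0.09 in double versus control, and 0.27 and -0.02 in double versus Wt1-null, with limma adjusted p between 0.754 and 0.982.

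Twist1 encodes a basic helix-loop-helix factor of mesoderm and limb mesenchyme that also restrains senescence under oncogenes. Its order was oncogene at 10.53 ± 0.33 (SD, n = 5), control at 10.42 ± 0.25 (SD, n = 5), double at 10.13 ± 0.55 (SD, n = 7) and Wt1-null at 9.93 ± 0.52 (SD, n = 5). The arrays of neighbouring groups overlapped. Control arrays read 10.69, 10.05, 10.32, 10.44 and 10.58. Oncogene arrays read 10.90, 10.16, 10.21, 10.68 and 10.69. Both groups therefore covered nearly the same range. Wt1-null arrays read 9.91, 10.66, 9.47, 9.42 and 10.19. The near-identical Wt1-null 3 and 4 were the lowest of that group, and Wt1-null 2 read close to the highest control. Double arrays ran from 9.27 (double 4) over a median of 10.09 to 10.80. The difference between oncogene and Wt1-null, groups at either end of the order, was 0.60 (SE 0.27), with an unadjusted p of 0.0372 and an adjusted p of 0.642 by limma. Wt1-null differed from control by -0.48 (SE 0.27, limma adjusted p = 0.515) and double from oncogene by -0.39 (SE 0.25, limma adjusted p = 0.9999). In both of these the arrays without Wt1 had the lower mean, and in both the 95% confidence interval contained 0.

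Twist2, also known as Dermo1, is a Twist1 relative of dermal fibroblasts. Its group means were 10.73 ± 0.17 (SD, n = 5) in control arrays, 10.94 ± 0.41 (SD, n = 5) in oncogene arrays, 10.60 ± 0.38 (SD, n = 5) in Wt1-null arrays and 10.99 ± 0.67 (SD, n = 7) in double arrays. The order was double, oncogene, control, Wt1-null, with overlapping arrays between neighbours. Values ran from 9.93 (Wt1-null 5) to 12.09 (double 4). The next highest array was double 5 at 11.66, and 4 of the 5 Wt1-null arrays lay between 10.74 and 10.80. Double differed from Wt1-null by 0.38 (SE 0.27, limma adjusted p = 0.560) and from control by 0.26 (SE 0.27, limma adjusted p = 0.680). Double 4, which had the highest value of Twist2, had the lowest of Twist1 and of both Snai2 probe sets.

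**Figure D2:**
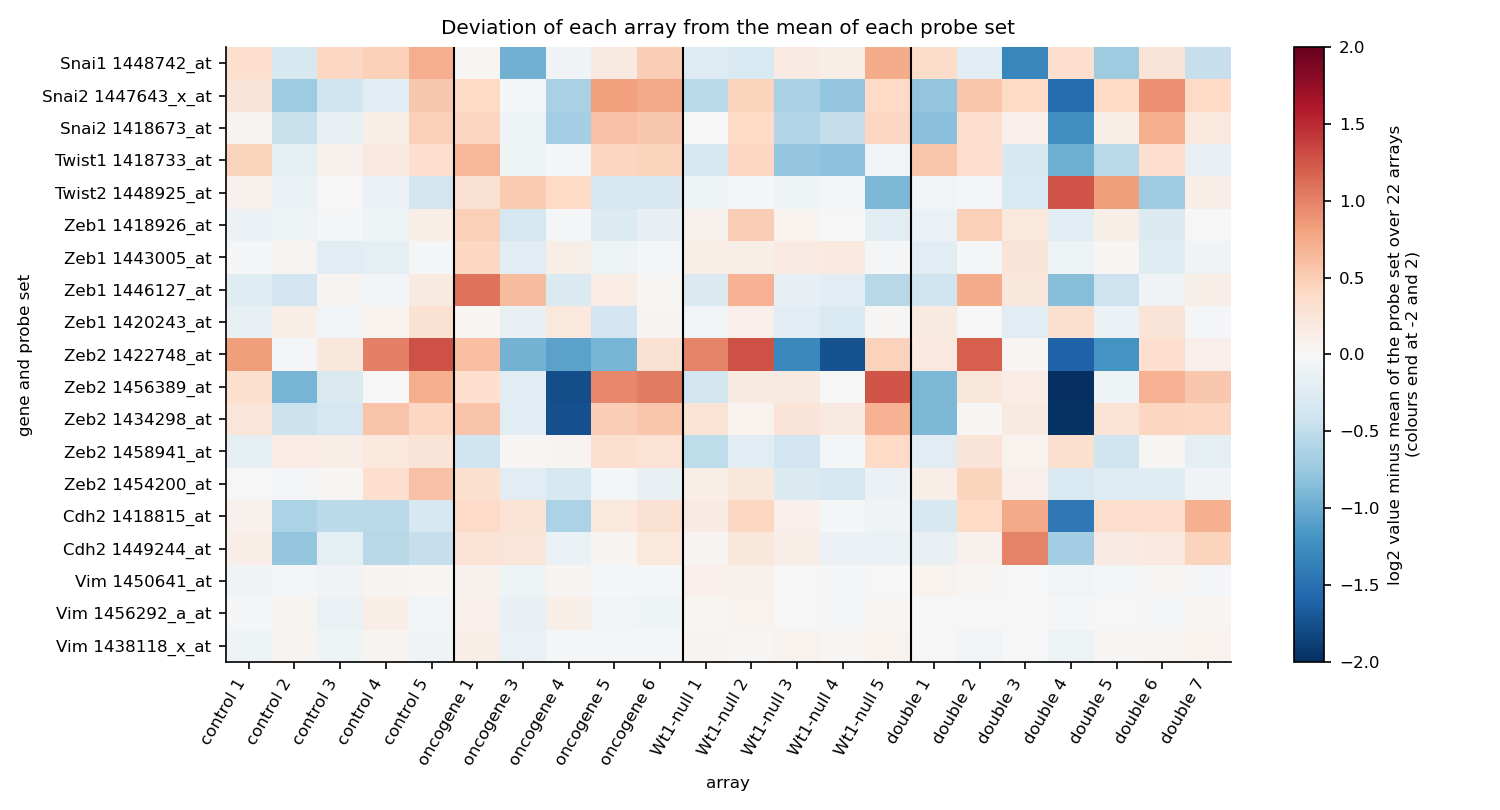
Deviation (log2, colour) of each array (columns, by group) from the mean of each of the 19 probe sets (rows) over 22 arrays. Double 4 is the lowest array for 7 of the 19 probe sets, and the 3 Vim rows show almost no colour.

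Zeb1 encodes a zinc finger homeobox repressor that is kept low in epithelia by the miR-200 family. Its probe set 1418926_at read 11.34 ± 0.10 (SD, n = 5) in control arrays, 11.31 ± 0.33 (SD, n = 5) in oncogene arrays, 11.47 ± 0.26 (SD, n = 5) in Wt1-null arrays and 11.41 ± 0.27 (SD, n = 7) in double arrays. The 4 means lay within 0.15 of each other, with Wt1-null first and oncogene last. The full range was 11.02 (oncogene 3) to 11.88 (Wt1-null 2). The differences were narrowly bounded for this probe set. The 95% confidence interval was -0.35 to 0.31 in oncogene versus control, -0.24 to 0.37 in double versus control, -0.21 to 0.40 in double versus oncogene and -0.37 to 0.24 in double versus Wt1-null. It was -0.20 to 0.46 in Wt1-null versus control and -0.48 to 0.17 in oncogene versus Wt1-null. The probe sets 1443005_at and 1446127_at had group means of 7.45 to 7.65 and 6.31 to 6.73, and their correlations with 1418926_at over the 22 arrays were 0.67 and 0.59. Their largest group difference was 0.43, in oncogene versus Wt1-null for 1446127_at (SE 0.28, limma adjusted p = 0.820). The 95% confidence interval of 1446127_at was wider, -0.15 to 1.01 there and -0.17 to 0.99 in oncogene versus control. Within the oncogene group that probe set read 7.50 and 7.04 in oncogene 1 and 3 and 6.13 to 6.56 in the other 3 arrays. The fourth probe set, 1420243_at, read 4.12 to 4.83, within the background range, and carries no measure of Zeb1.

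Zeb2, whose protein is also called Sip1, is the Zeb1 relative that binds Smad proteins. It had the widest spread between arrays and its probe sets disagreed. The probe set 1422748_at read 8.91, 8.05, 8.31, 9.09 and 9.36 in control arrays, with a mean of 8.75 ± 0.55 (SD, n = 5). It read 8.68, 7.14, 7.02, 7.16 and 8.39 in oncogene arrays, with a mean of 7.68 ± 0.79 (SD, n = 5). Oncogene 3, 4 and 5 lay below every control array, and oncogene 1 and 6 within the control range. In Wt1-null arrays it read 9.08, 9.36, 6.79, 6.35 and 8.54, with a mean of 8.03 ± 1.37 (SD, n = 5). The near-identical Wt1-null 3 and 4 were again the low ones. The double arrays ran from 6.47 (double 4) over a median of 8.18 to 9.28, with a mean of 7.95 ± 0.96 (SD, n = 7). The order of means was control, Wt1-null, double, oncogene, and the arrays of neighbouring groups overlapped. The difference of oncogene from control was -1.07 (SE 0.57), the largest in size of any of the 19 probe sets in that comparison, with a 95% confidence interval of -2.27 to 0.13 and an adjusted p of 0.432 by limma. Wt1-null differed from control by -0.72 (SE 0.57) and double by -0.79 (SE 0.53), with limma adjusted p of 0.664 and 0.483. The interaction was 0.997 (SE 0.78, limma adjusted p = 0.738).

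The other 4 Zeb2 probe sets differed by -0.27 to 0.11 in oncogene versus control. The probe set 1434298_at read 7.19, 6.52, 6.62, 7.52 and 7.36 in control and 7.53, 6.75, 5.19, 7.45 and 7.50 in oncogene arrays. Only oncogene 4 was low in that group, and the difference was -0.16 (SE 0.44). In Wt1-null arrays it read 7.22, 7.02, 7.22, 7.14 and 7.65, and in double arrays 4.97 to 7.38 with a median of 7.13. The Wt1-null arrays clustered tightly, with Wt1-null 3 and 4 within the range of the rest. The largest difference, double versus Wt1-null, was -0.52 (SE 0.41, limma adjusted p = 0.611). The probe set 1456389_at had group means of 6.94, 7.05, 7.23 and 6.78 in control, oncogene, Wt1-null and double arrays, and it read 5.21 in oncogene 4 and 4.93 in double 4 against 6.06 to 8.24 in the other 20 arrays. These 2 probe sets correlated at 0.92 with each other over the 22 arrays but at 0.43 and 0.40 with 1422748_at, and at 0.10 and 0.11 without oncogene 4 and double 4. The probe set 1458941_at had group means of 5.71 to 5.96 and correlated with 1422748_at at 0.00. The dim 1454200_at read 4.05 to 4.98, within the background range, although it correlated with 1422748_at at 0.82. The files do not say which transcripts each probe set detects, so the Zeb2 result is a set of probe set values and not 1 value for the gene.

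**Figure D3:**
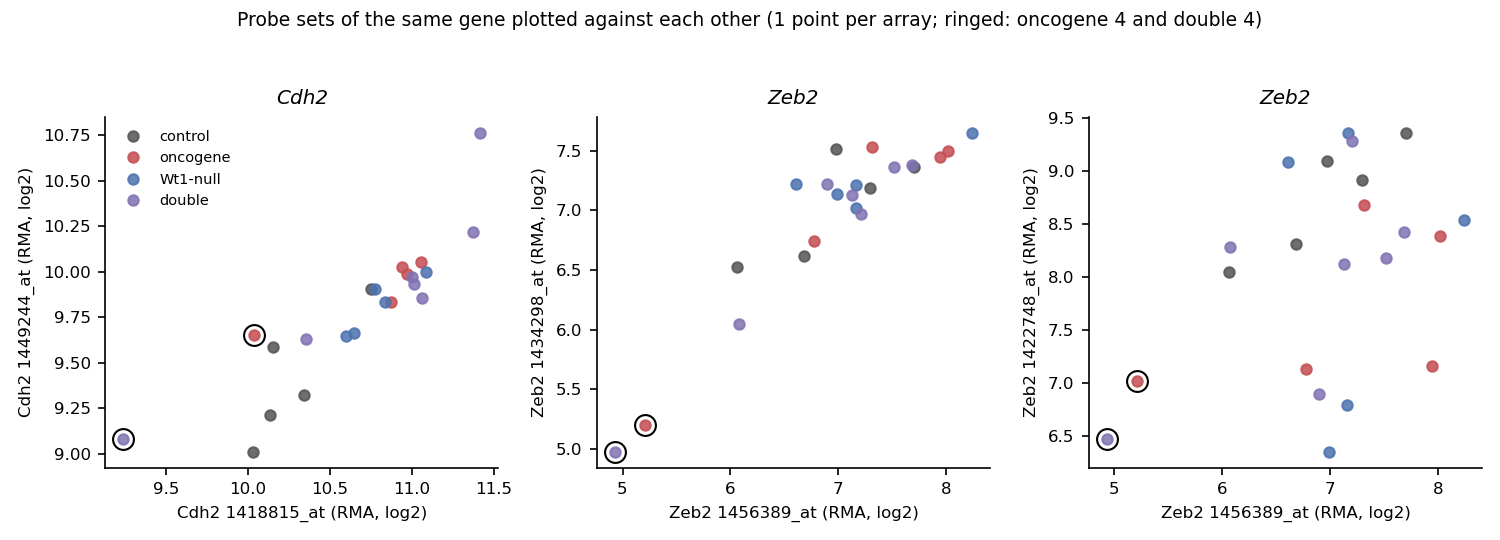
RMA values (log2) of 2 probe sets of the same gene on the horizontal and vertical axes, 1 point per array coloured by group, with oncogene 4 and double 4 ringed. The Cdh2 pair and the Zeb2 pair 1456389_at and 1434298_at lie along a line (r = 0.88 and 0.92), and Zeb2 1422748_at against 1456389_at scatters (r = 0.40).

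Cdh2 encodes N-cadherin, the calcium-dependent adhesion molecule of mesenchymal and neural cells that links to actin through catenins. It was the gene with the smallest p of the 8 in oncogene, Wt1-null and double versus control, and its means were higher in all 3 Cre-treated groups. Probe set 1418815_at read 10.75, 10.03, 10.15, 10.13 and 10.34 in control arrays, a mean of 10.28 ± 0.29 (SD, n = 5). In oncogene arrays it read 11.05, 10.94, 10.04, 10.87 and 10.97, a mean of 10.77 ± 0.42 (SD, n = 5). In Wt1-null arrays it read 10.83, 11.09, 10.77, 10.65 and 10.59, a mean of 10.79 ± 0.19 (SD, n = 5). Control 1 sat within the Wt1-null range, and the other 4 control arrays sat below it. The double arrays ran from 9.24 (double 4) over a median of 11.01 to 11.42, a mean of 10.78 ± 0.76 (SD, n = 7). Apart from double 4 and double 1 (10.35), the double arrays all exceeded the highest control array. The 3 Cre-treated means differed from each other by 0.01 at most.

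The second Cdh2 probe set, 1449244_at, gave the same order of control against the rest. It read 9.90, 9.01, 9.58, 9.22 and 9.32 in control arrays, a mean of 9.41 ± 0.35 (SD, n = 5). The oncogene arrays read 10.06, 10.03, 9.65, 9.83 and 9.99, a mean of 9.91 ± 0.17 (SD, n = 5). The Wt1-null arrays read 9.83, 9.9989, 9.91, 9.67 and 9.64, a mean of 9.81 ± 0.15 (SD, n = 5). All 10 of these arrays were above 4 of the 5 control arrays, and control 1 overlapped them. The double arrays ran from 9.08 over a median of 9.93 to 10.76, a mean of 9.92 ± 0.52 (SD, n = 7). Over the 22 arrays both Cdh2 probe sets correlated at 0.88.

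The Cdh2 differences from control were 0.49 (SE 0.31) and 0.50 (SE 0.22) in oncogene, 0.51 (SE 0.31) and 0.40 (SE 0.22) in Wt1-null, and 0.50 (SE 0.28) and 0.51 (SE 0.20) in double arrays. The 3 comparisons share the same control arrays and the same change of virus. The smaller unadjusted p was 0.0305 in oncogene, 0.0768 in Wt1-null and 0.0183 in double arrays, and the corresponding limma adjusted p were 0.301, 0.5 and 0.166. Between Cre-treated groups the Cdh2 differences were 0.01 and 0.01 in double versus oncogene and -0.01 and 0.11 in double versus Wt1-null. Their 95% confidence intervals reached from -0.60 to 0.60 for 1418815_at and from -0.41 to 0.53 for 1449244_at. Array double 4 bears on the call. Without it the double difference was 0.75 and 0.65, with limma adjusted p of 0.0275 and 0.0301, and without double 4 and oncogene 4 together the same differences had adjusted p of 0.00913 and 0.0258. Over all settings tried, the differences from control ran from 0.42 to 0.69 and 0.40 to 0.63 in oncogene, from 0.35 to 0.94 and 0.37 to 0.82 in double, and from 0.13 to 0.62 and 0.08 to 0.53 in Wt1-null arrays. The Wt1-null difference moved with the set of accession numbers. With these sets, taken as possible batches, as a fixed block it was 0.13 and 0.08, and in the set that holds control, oncogene and double arrays, the double difference was 0.62 and 0.64. Only 1 control array shares a set with Wt1-null arrays, and no double array does.

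**Figure D4:**
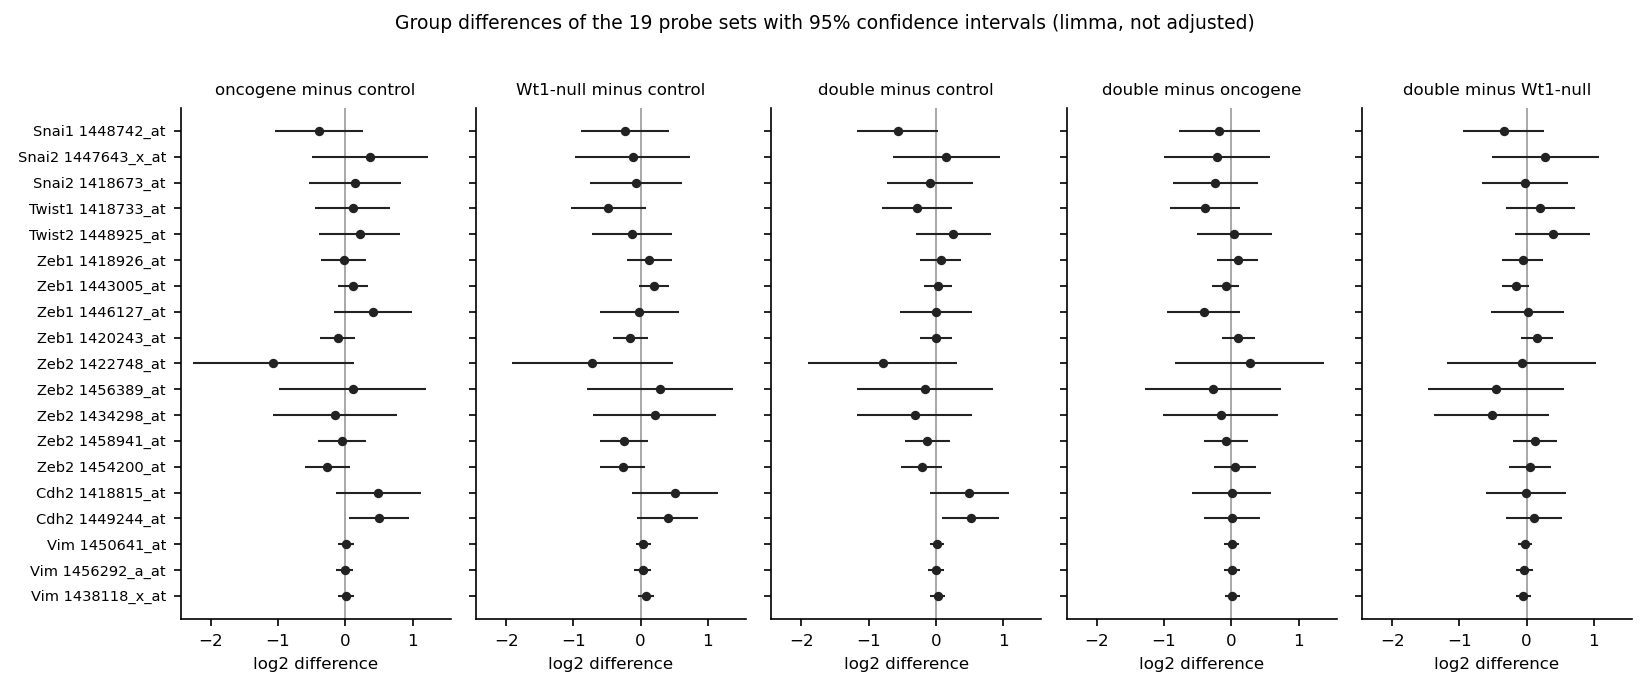
Difference of group means (log2, horizontal axis) with its unadjusted 95% confidence interval from limma for each of the 19 probe sets (rows) in 5 comparisons (panels). The Cdh2 points lie between 0.40 and 0.51 in the 3 comparisons with control and between -0.01 and 0.11 in the other 2, and the Vim intervals are the narrowest.

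Vim encodes vimentin, the intermediate filament protein of mesenchymal cells. Its 3 probe sets read 14.74 to 14.93, 14.24 to 14.52 and 14.25 to 14.51 over all 22 arrays. The highest value in the table was 15.12, so Vim sat near the upper end of the scale, and whether this limits a measurable rise was not tested. The SD within groups was 0.06 to 0.08, against a median of 0.23 over all probe sets. Group means of 1450641_at were 14.82 ± 0.05 (SD, n = 5) in control arrays, 14.83 ± 0.07 (SD, n = 5) in oncogene arrays, 14.86 ± 0.07 (SD, n = 5) in Wt1-null arrays and 14.83 ± 0.04 (SD, n = 7) in double arrays. The order of these means has no weight, since every neighbouring pair differed by less than its SD. The largest Vim difference from control in any group was 0.08, for 1438118_x_at in Wt1-null arrays.

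Apart from probe sets of the same gene, the highest correlations between members were in pairs that crossed families. The correlations below are over the 22 arrays, which share groups and batches, and are descriptions. Snai2 and Cdh2 correlated at 0.73 (0.57 without oncogene 4 and double 4). Twist1 and Zeb2 1422748_at correlated at 0.69 (0.65 without these arrays). Snai2 correlated at 0.83 with Zeb2 1456389_at (0.78 without them). Snai1 and Cdh2 had a correlation of -0.50 (-0.57 without them). Snai2 and Twist2 had -0.50, which fell in size to -0.22 without the 2 arrays. Between paralogues, Snai1 with Snai2 gave -0.07, Twist1 with Twist2 -0.42 (-0.20 without the 2 arrays), and Zeb1 with Zeb2 1422748_at 0.41 (0.36 without them).

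Among 11951 genes with a mean of 6 or more, those with patterns most like each member by Pearson r over the 22 arrays were the following. Snai1 was closest to Mgat1, Mxd3 and Mrgprf (0.85, 0.84 and 0.84), and Snai2 to Tut4, Psd3 and Slc38a2 (0.91, 0.90 and 0.90). Twist1 was closest to Hoxa11os, Cnpy2 and Nenf (0.88 each), and Twist2 to Repin1, Tut1 and Frmd8 (0.89, 0.88 and 0.87). Zeb1 was closest to Mblac2, Ypel2 and Pak3 (0.80, 0.79 and 0.78), and Zeb2 to Spcs1, Yipf4 and Pdia3 (0.88, 0.87 and 0.85). Cdh2 was closest to Ptpn4, Fnbp1l and Atp2b1 (0.93, 0.92 and 0.92), and Vim to Abcc9, Fa2h and Elovl7 (0.80, 0.71 and 0.68). The members themselves were left out of the genes searched, so none could appear among the closest.

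The genes around these factors were described by 5 lists, each gene represented by the probe set of highest mean. Other probe sets of a named gene did not always give the same result. The lists were chosen with earlier results of these data known, so their counts and medians are descriptions and not independent of the data. At 1 probe set per gene, 1.52% of genes were called in oncogene versus control, 0.0605% in Wt1-null versus control, 5.18% in double versus control and 0.0055% in double versus Wt1-null. No list gene was called in Wt1-null versus control, double versus oncogene, double versus Wt1-null, oncogene versus Wt1-null or the interaction. In double versus Wt1-null and oncogene versus Wt1-null this rests on Wt1-null 2. Without that array, 3.77% of all probe sets were called in double versus Wt1-null. Among list genes, 2 inducers, 1 corepressor, 2 epithelial targets, 3 mesenchymal companions and 1 partner (Dsp, which is also among the epithelial targets) were then higher. Lower were 3 inducers, 1 epithelial target and 2 companions, Acta2 at -0.65 and Tagln at -1.14. The list genes with the smallest adjusted p, chosen after their values were seen, were Mmp3 at 3.27 (limma adjusted p = 0.000312), Krt7 at -3.11 (0.00164) and Cdh13 at 1.19 (0.00248). In oncogene versus Wt1-null, 0.744% of all probe sets were called without that array. Among list genes, Pdgfra at 2.27 and Mmp3 at 2.28 were then higher there, and Fgf2 at -1.89 and Krt7 at -2.88 lower. The other 3 comparisons kept a count of 0 without Wt1-null 2. Double and Wt1-null arrays share no set of accession numbers, so their difference cannot be told apart from a difference between sets. With the sets as a fixed block and Wt1-null 2 kept, 0 of all probe sets were called in double versus Wt1-null. Without the block, and with that array kept, 3 were called. The block was not fitted without Wt1-null 2, so its count does not bear on the calls made without that array. Among inducers and signalling genes, which switch the factors on, 3 of 28 measured rose in oncogene versus control and 0 fell, with a list median of 0.25 against -0.03 over all genes. They were Hmga2, a chromatin protein that activates Snai1, at 1.18 (SE 0.21, limma adjusted p = 0.0108), Met, the receptor of hepatocyte growth factor, at 1.90 (SE 0.40, limma adjusted p = 0.0240) and Pdgfra, a PDGF receptor, at 1.97 (SE 0.45, limma adjusted p = 0.0335). Another Hmga2 probe set, with a mean of 12.79, differed by 0.85 (limma adjusted p = 0.261). Another Met probe set, with a mean of 6.42, differed by 0.69 (limma adjusted p = 0.303). Further probe sets of Hmga2, at 1.05, and of Pdgfra, at 1.60, were called. Another Pdgfra probe set, with a mean of 9.15, also differed by 1.60 but was not called (limma adjusted p = 0.0513). In double versus control the uncalled Hmga2 and Met probe sets differed by 0.32 and 0.74 (limma adjusted p = 0.666 and 0.147). In double versus control 4 rose and 0 fell, Notch2 being the fourth at 0.74 (limma adjusted p = 0.0444, and 0.0521 without oncogene 4 and double 4). Without these arrays Ctnnb1 was called in its place, at 0.36 (limma adjusted p = 0.0381). A dimmer Notch2 probe set, with a mean of 5.75, differed by -0.17 in double versus control over all arrays (limma adjusted p = 0.509). The ligands of the TGF-beta family, the best known inducers, were not called. Tgfb1 read 9.92 ± 0.36 (SD, n = 5), 9.63 ± 0.67 (SD, n = 5), 9.49 ± 0.38 (SD, n = 5) and 9.78 ± 0.72 (SD, n = 7) in control, oncogene, Wt1-null and double arrays. Tgfb2 and Tgfb3 differed by -1.50 (SE 0.49) and -1.15 (SE 0.32) in double versus Wt1-null, with limma adjusted p of 0.196 and 0.150 (Tgfb3 was -1.40 with 0.0182 without Wt1-null 2), and by -0.79 and -0.61 in oncogene versus control.

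Of the epithelial targets that Snai and Zeb proteins repress, 0 of 28 rose and 1 fell in oncogene versus control, with a list median of -0.00. The one was Krt7, a simple epithelial keratin, at -2.64 (SE 0.59, limma adjusted p = 0.0319, and 0.0506 without oncogene 4 and double 4). Without these arrays Tjp3 was called instead, at -0.36 (limma adjusted p = 0.0413). In double versus control 2 rose and 1 fell, and without oncogene 4 and double 4 Cldn1 rose too, at 2.31 (limma adjusted p = 0.0479). Dsp (desmoplakin) was higher by 2.76 (limma adjusted p = 0.00863) and Perp, a desmosomal membrane protein, by 3.24 (limma adjusted p = 0.0182), while Krt7 was lower, at -2.87 (limma adjusted p = 0.00574). Cdh1, their best known target, read 3.92 ± 0.13 (SD, n = 5) in control arrays, 4.07 ± 0.11 (SD, n = 5) in oncogene arrays, 4.06 ± 0.12 (SD, n = 5) in Wt1-null arrays and 4.07 ± 0.12 (SD, n = 7) in double arrays, at background throughout. Among corepressors and partners, such as Ctbp1, Hdac1 and Tcf3, 0 of 34 were called in any of the 7 comparisons, and without Wt1-null 2 Sin3a was called in double versus Wt1-null, at 0.49 (limma adjusted p = 0.0305). Without oncogene 4 and double 4, Ctbp2 was called in double versus control, at -0.34 (limma adjusted p = 0.0465).

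Among mesenchymal companions, 2 of 30 rose in oncogene versus control and 0 fell, with a list median of 0.07. They were the matrix metalloproteinases Mmp2 at 1.61 (SE 0.31, limma adjusted p = 0.0161) and Mmp3 at 3.09 (SE 0.68, limma adjusted p = 0.0292). In double versus control 4 rose and 0 fell, which were Mmp2 at 1.85, Mmp3 at 4.08, the T-cadherin gene Cdh13 at 1.54 (limma adjusted p = 0.00299) and the fibronectin gene Fn1 at 0.91 (limma adjusted p = 0.0330). Another Fn1 probe set, with a mean of 8.76, differed by -0.08 there (limma adjusted p = 0.952). Other probe sets of Mmp2, at 1.92, and of Cdh13, at 1.52 and 1.63, were called. Cdh13 rose beside Cdh2, whose own difference was not called. Without oncogene 4 and double 4, 4 mesenchymal companions again rose in double versus control and 1 fell. The 1 that fell was Acta2, at -0.55 (limma adjusted p = 0.0352). Among cadherin and filament partners, 1 of 24 rose in oncogene versus control, which was Afdn, the junctional adaptor afadin, at 0.89 (SE 0.14, limma adjusted p = 0.00460). In double versus control 3 of 24 rose, which were Afdn at 0.70 (limma adjusted p = 0.00493), Dsp, also in the epithelial list, and the alpha-catenin gene Ctnna1 at 0.61 (limma adjusted p = 0.0143). A dimmer Afdn probe set, with a mean of 5.89, differed by -0.03 in oncogene and 0.03 in double versus control, neither called. Another Ctnna1 probe set was called in double versus control, at 0.63, and a dimmer one, at -0.26, was not. Without oncogene 4 and double 4, 5 partners rose in double versus control. Those added were Ctnnb1 at 0.36 and Plec at 0.68 (limma adjusted p = 0.0381 and 0.0216). In oncogene versus control 2 then rose, Ctnna1 being added at 0.62 (limma adjusted p = 0.0439). Genes named from double versus control in these lists were chosen after their values were seen. The bulk arrays cannot tell a change per cell from a change in the mix of cells. The mean of the 10 epithelial markers was 5.92 to 6.36 in control and 5.92 to 6.77 in double arrays, that of 8 mesothelial markers 5.51 to 6.23 and 5.59 to 6.10, and their part in these results was not tested.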

How the data were processed

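The authors deposited log2 expression values, made with RMA in Affymetrix Expression Console, per the submitters' processing notes. No version of it is stated in the labels. RMA equalizes the distribution of probe intensities between arrays before summarizing them, so a shift of most transcripts at once cannot be seen. The array medians of the summarized values ran from 6.23 to 6.33. The table held 45101 probe sets, of which 64 controls were left out. An annotation table for the array gave 1 gene for 34945 probe sets, several for 932 and none for 9160. The mutant oncogene is not reported here by name. The design text names 6 oncogene arrays, and 5 were analysed here, with replicate numbers as in the labels.

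Group means were fitted with limma 3.58.1 in R 4.3.3 (lmFit and eBayes) to all 45037 probe sets, 4 groups and 22 arrays. Benjamini-Hochberg adjustment ran over all probe sets within each of 7 comparisons and the F test, and calls were made at 0.05. The pipeline was tested on simulated data. The genes described and the 5 pathway and 9 marker lists were chosen with earlier results of these data known. All probe sets of the 8 genes were reported, array by array where group means differed by 0.5 or more. List genes were named where called in oncogene versus control or double versus Wt1-null (up to 4 per list), with Cdh1 and Tgfb1 to Tgfb3 always.

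Of 28 pairs of same-numbered arrays from different groups, 12 had a correlation of their deviations above 0.1 (range -0.44 to 0.78), against 53 of 152 pairs with other numbers. Some same-numbered arrays were each other's closest, such as double 2 and Wt1-null 2, but not every pair correlated, so the numbers were not taken as pairs. Alternatives changed the probe sets tested, the normalization, the variance model, array weights, blocks, an Xist covariate and the arrays included. The number of arrays limits the precision.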

Additional observations from a re-analysis of the deposited data

Results flagged for a closer look

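Of 76 groups of arrays examined, 1 for each of the 19 probe sets and 4 groups, 3 held an array far from the others of its group by Dixon's criterion. Chance alone flags about 1 in 20 groups, so 3 of 76 is no more than that. For Twist2, Wt1-null 5 read 9.93, and the next lowest Wt1-null array read 10.74. For the Zeb2 probe set 1458941_at, control 1 read 5.66, and the next lowest control array read 5.98. For the Cdh2 probe set 1418815_at, oncogene 4 read 10.04, and the next lowest oncogene array read 10.87. Oncogene 4 is 1 of the 2 arrays least like the rest.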

How the results depend on the processing

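The count of the 19 probe sets called was recomputed under 38 settings, 22 of which left out 1 array, giving 297 counts, of which 288 were 0. With array weights, which gave double 4 the lowest weight (0.148), 2 were called in oncogene versus control, 6 in Wt1-null versus control, 3 in double versus control, 1 in double versus Wt1-null, 1 in oncogene versus Wt1-null and 4 in the F test. With the same weights 5795, 8482, 10791, 4785, 831 and 12521 of all probe sets were called in these tests. The 6 include the Zeb2 probe set 1454200_at, at background, with -0.43. Without oncogene 4 and double 4 together, 2 were called in double versus control, both Cdh2, and 1 in the F test, with 3279 and 1390 of all probe sets called there, against 1805 and 828 in the main analysis. Leaving out 1 array at a time gave 0 to 2 in double versus control, the 2 being Cdh2 without double 4 (2370 of all), and 0 in the other comparisons. Without Wt1-null 2 the calls over all probe sets went from 3 to 1697 in double versus Wt1-null and from 4 to 335 in oncogene versus Wt1-null. With the replicate block, which the labels' numbers allow, 0 were called in each comparison, and it changed no call. Of 4784 recomputed differences, 17 passed the threshold where the main fit did not, and 307 changed sign. The main fit called no member in any comparison, so no sign change could fall on a called difference. With the set of accessions as a fixed block, Cdh2 1449244_at in double versus Wt1-null moved from 0.11 to 0.51, and with array weights Zeb2 1422748_at there moved from -0.07 to 0.97. The cause was not tested. The number of arrays limits the precision.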
